A study of Mus musculus with 6 samples.

Results

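The genes described here are the 8 E2F transcription factor genes of the mouse, E2f1 to E2f8, and some pocket protein genes. The latter are Rbl1, which encodes p107, and Rbl2, which encodes p130, while the pocket protein gene Rb1 was not examined. They were chosen by name as 1 family, with earlier results of these data known. Of the 27179 genes in the count table, 10 are described, and all 10 were among the 11005 genes with enough reads to be tested. RNA was sequenced from germinal center (GC) B cells of the spleen of C57BL/6 mice, either WT or Il21r-/- (labelled knock-out and lacking the receptor for IL-21, a cytokine that T cells supply to GC B cells), 7, 10 and 14 days after immunization. All mice had received NP-KLH, a hapten coupled to a carrier protein, in alum, and the cells had been sorted as NP-binding, IgG1+ and CD38- B cells. There was 1 library for each genotype on each day, which gives 6 libraries with 3 per genotype. The number of mice behind each library was not clear from the sources, though a figure legend of the study names 3 mice per genotype on day 7. The study's methods name more than 1 immunization, without saying which libraries came from which. Per the study's general methods, which make an exception only for a labelling time course, experiments used irradiated Ly5.1 hosts given WT or Il21r-/- bone marrow, whereas the labels name the genotype alone. In such mice the T cells and other blood cells that arise from the marrow would carry the donor genotype along with the B cells, so the libraries do not separate the receptor's action in B cells from that in other blood cells.

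E2F proteins bind DNA, most of them together with a DP partner, and set the transcription of genes for entry into the cell cycle and for DNA replication. E2F1, E2F2 and E2F3 activate these genes, E2F4 and E2F5 repress them when bound to a pocket protein, E2F6 represses as part of a Polycomb complex, and E2F7 and E2F8 are atypical factors that repress without a DP partner or a pocket protein. p107 and p130 hold E2F factors in a repressive state, and with E2F4, a DP partner and the MuvB core they form the DREAM complex, which keeps cell cycle genes low in resting cells. Cyclins with their kinases phosphorylate pocket proteins and so release the E2F factors. GC B cells divide fast in the dark zone and are selected in the light zone.

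The libraries held 21353438 to 27435124 reads on genes. Il21r itself was at 346, 263 and 247 CPM (read counts scaled by library size) in WT on days 7, 10 and 14, and at 106, 128 and 113 CPM in Il21r-/-. Its reads thus remained in Il21r-/- libraries at a lower level, with a log2 fold change of 1.29 in WT over Il21r-/- (SE 0.13, adjusted p = 0.00137, edgeR quasi-likelihood test). Of 11 GC B cell markers all were detected, and their summed level was 10114 to 12055 CPM in WT and 10867 to 13681 CPM in Il21r-/-. The 7 T cell markers summed to 86.4 to 122 CPM in WT and 81.7 to 117 CPM in Il21r-/-, nearly all of it from Lck. The 7 myeloid markers summed to 8.42 to 13.1 and 12.001 to 19.3 CPM, with Mpo at 0 in all 6 libraries, and 1 of the 4 that could be tested, Cd68, was called higher in Il21r-/-. The 5 plasma cell markers summed to 2523 to 2739 CPM in WT and 2774 to 3621 CPM in Il21r-/-, most of it from Jchain. Prdm1 was called higher in WT and Xbp1 higher in Il21r-/-, and none of the 5 was at 0 in all libraries. Prdm1 was at 0.26 to 1.83 CPM over the 6 libraries, and Sdc1, too low to be tested, at 0.36 to 0.85 CPM.

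All 10 genes were expressed in every library, and they spanned a wide range of levels. Per kilobase of gene length, E2f4 was the highest at 55.8 ± 5.12 RPKM (CPM divided by the gene's length in kilobases; mean ± SD over 6 libraries), above 83.3% of the genes tested. E2f2 followed at 41.1 ± 5.25 RPKM, and both stood above every other gene of the family. E2f4 is the main repressor E2F and E2f2 an activator, so the most abundant transcripts came from opposite arms of the family. Rbl1 lay at 26.4 ± 2.47 RPKM and E2f1 at 22.7 ± 2.86 RPKM. Below them stood E2f8 at 14.7 ± 3.90, E2f5 at 13.1 ± 1.25, E2f6 at 9.44 ± 0.999 and Rbl2 at 8.42 ± 0.66 RPKM. E2f3 at 5.06 ± 0.81 and E2f7 at 2.92 ± 0.55 RPKM were the lowest, with E2f7 above 23.4% of the genes tested. Between neighbours in this order the ranges over the 6 libraries overlapped for E2f4 and E2f2 (47.7 to 61.9 against 34.6 to 48.3 RPKM), for Rbl1 and E2f1, for E2f1 and E2f8, for E2f8 and E2f5, and for E2f6 and Rbl2. They did not overlap between E2f2 and Rbl1, E2f5 and E2f6, Rbl2 and E2f3, or E2f3 and E2f7.

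**Figure D1:**
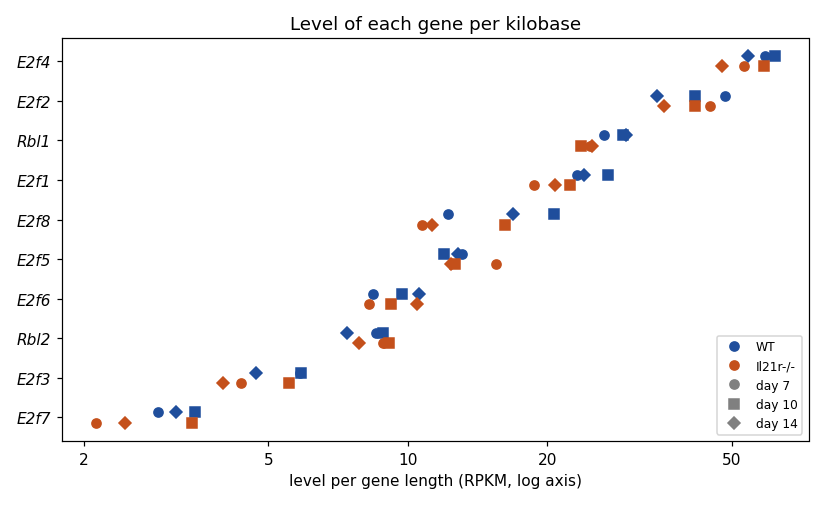
Level of each gene in CPM per kilobase of gene length (RPKM, log axis), 1 symbol per library, with WT in blue and Il21r-/- in orange and the symbol shape giving the day. E2f4 and E2f2 stand at the top and E2f7 at the bottom, and the libraries of 1 gene spread less than the genes do among themselves.

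The make-up of the E2F pool was similar in the 6 libraries. E2f4 supplied 32.9 to 34.6% of the summed RPKM of the 8 E2F genes, and E2f2 supplied 21.5 to 28.4%. The activators E2f1, E2f2 and E2f3 together made up 39.3 to 44.7%, and the atypical repressors E2f7 and E2f8 made up 8.15 to 13.2%. The ratio of activator to repressor RPKM was 0.808, 0.693 and 0.648 in WT on days 7, 10 and 14. In Il21r-/- it was 0.756, 0.694 and 0.718 on the same days. The ratio was thus highest on day 7 in both genotypes, with the genotypes overlapping, and no test was made of it.

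The promoters of 4 members held letters of the E2F binding motif, and they are shown because E2F genes are known to be targets of E2F factors themselves. A window from 250 bases before to 50 bases after the annotated start was given for 8 of the 10 genes (RefSeq, GRCm38.p6), and it was searched on both strands for TTTCCCGC, TTTCGCGC, TTTGCCGC and TTTGGCGC. The match is in capitals in the strand of the gene, 5′ to 3′, so a match on the other strand appears as its reverse complement.
E2f2 (chr4:136172302-136172323, plus strand): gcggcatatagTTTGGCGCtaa
E2f3 (chr13:29986056-29986085, minus strand): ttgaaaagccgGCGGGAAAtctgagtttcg
E2f7 (chr10:110745230-110745259, plus strand): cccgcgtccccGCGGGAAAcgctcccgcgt
Rbl1 (chr2:157204534-157204563, minus strand): aagaaggcgatTTTCGCGCgctttgtcgcg

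These matches lie 39 bases after the start in E2f2 and 11, 198 and 18 bases before it in E2f3, E2f7 and Rbl1. A match was present in 4 of 8 members (50%), against 428 of 8529 tested genes with a window (5.02%). E2f2 and E2f3 each had a further window, without a match. Counted by window, 453 of the 10781 windows of tested genes (4.2%) held a match. With the same forms less their first T, 7 bases long and held within the 8-base forms, 5 of 8 members and 20.3% of tested genes held a match. With TTTCGCGC and TTTGGCGC alone, 2 of 8 members and 1.98% of tested genes did. None of the 8-base forms was found in the windows of E2f1, E2f6, E2f8 and Rbl2, and the single windows of E2f1, E2f6 and E2f8 lie around starts downstream of the outermost annotated start of the gene. A match is a description of letters and does not show that a factor binds there.

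Across the 3 days, 8 of the 10 genes had a positive log2 fold change in WT over Il21r-/-, but none passed the adjusted threshold of 0.05. The test was edgeR's quasi-likelihood test with genotype and a linear day term, adjusted by the Benjamini-Hochberg method over all 11005 genes. By it, 0 of 10 members were called against a background of 5.92% of genes tested, and 2 members, Rbl1 and E2f1, were under an unadjusted p of 0.05 against 21.4% of all genes. The median log2 fold change of the members was 0.18, beside -0.01 over all genes tested. The day pairs the libraries of both genotypes (processing section), and with day as a replicate block 3 members were called: E2f1, E2f8 and Rbl1, all higher in WT. The background under the block was 22.9% of genes called, with 9.33% called higher in WT.

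**Figure D2:**
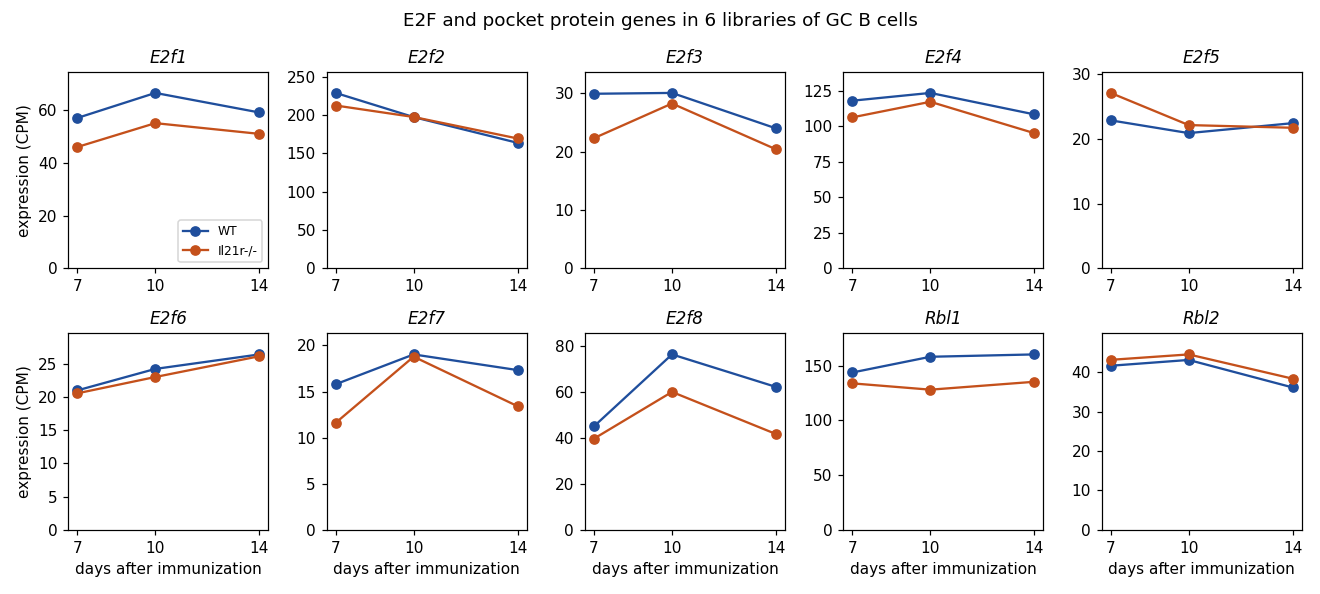
CPM of each gene (y axis from 0) against days after immunization, with WT in blue and Il21r-/- in orange and 1 library per point. E2f1 and Rbl1 have all WT points above all Il21r-/- points, E2f2 falls with day in both genotypes, and E2f8 peaks on day 10 in both.

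E2f1, an activator that rises as cells enter S phase, was at 57.1, 66.5 and 59.1 CPM in WT on days 7, 10 and 14. In Il21r-/- it was at 46.0, 55.1 and 51.0 CPM. All WT libraries lay above all Il21r-/- libraries, with means of 60.9 ± 4.99 and 50.7 ± 4.53 CPM (SD, n = 3), so the Il21r-/- mean was 16.7% lower. The log2 fold change of E2f1 was 0.26 (SE 0.11), with an adjusted p of 0.219 by edgeR. Blocking on day brought the SE of E2f1 to 0.09 and its adjusted p to 0.0278.

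E2f2, the activator with the highest level, was at 229, 197 and 164 CPM in WT on days 7, 10 and 14. In Il21r-/- it was at 213, 198 and 169 CPM. The genotypes overlapped, and both were highest on day 7 and lowest on day 14. The log2 fold change between genotypes was 0.02 (SE 0.09, adjusted p = 0.928 by edgeR), and its sign turned without either day 7 library (-0.01 and -0.004).

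E2f3, the activator with the lowest level, was at 29.9, 30.0 and 24.0 CPM in WT and at 22.3, 28.2 and 20.4 CPM in Il21r-/-. WT was the higher on each day, while the day 14 WT library lay below the day 10 Il21r-/- library. Its log2 fold change of 0.24 (SE 0.14) did not pass, with an adjusted p of 0.387 by edgeR and 0.0943 with the block. Without the day 7 Il21r-/- library it was 0.12 (adjusted p = 0.70 by edgeR). Without the day 10 Il21r-/- library it was 0.38 (adjusted p = 0.0383 by edgeR), in a fit that called 8.47% of genes higher in WT.

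Among the repressors that bind pocket proteins, E2f4 was at 118, 123 and 108 CPM in WT and at 106, 117 and 95.02 CPM in Il21r-/-. WT was the higher on each day, with overlapping groups and a log2 fold change of 0.14 (SE 0.10, adjusted p = 0.496 by edgeR). E2f5 was at 22.9, 20.9 and 22.4 CPM in WT and at 27.1, 22.1 and 21.7 CPM in Il21r-/-. It was higher in Il21r-/- on days 7 and 10 and in WT on day 14, with a log2 fold change of -0.10 (SE 0.12, adjusted p = 0.710 by edgeR).

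E2f6, the Polycomb-linked repressor, was at 21.0, 24.2 and 26.4 CPM in WT and at 20.6, 23.0 and 26.1 CPM in Il21r-/-. The genotypes lay close to each other on every day, with WT the higher, and both were higher on each later day. Between genotypes E2f6 had a log2 fold change of 0.04 (SE 0.11, adjusted p = 0.872 by edgeR).

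E2f7 and E2f8, the atypical repressors that close down E2F target genes late in S phase, varied most among the members. E2f7 was at 15.8, 19.0 and 17.3 CPM in WT and at 11.6, 18.8 and 13.4 CPM in Il21r-/-. The 2 genotypes were nearly level on day 10 and differed more on days 7 and 14. The log2 fold change of E2f7 across all libraries was 0.25 (SE 0.19, adjusted p = 0.486 by edgeR). That value was 0.10 without the day 7 and 0.13 without the day 14 Il21r-/- library (adjusted p of 0.813 and 0.876 by edgeR). Without the day 10 Il21r-/- library it was 0.48 (adjusted p = 0.0245 by edgeR), again beside 8.47% of genes called higher in WT.

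E2f8 was at 45.0, 76.3 and 62.1 CPM in WT on days 7, 10 and 14. In Il21r-/- it was at 39.7, 60.0 and 41.7 CPM. WT was the higher on each day, and the groups overlapped because both genotypes were higher on day 10 than on day 7. The means were 61.1 ± 15.6 and 47.1 ± 11.2 CPM (SD, n = 3), 23.0% lower in Il21r-/-. With all 6 libraries its log2 fold change of 0.37 was the largest among the members, with an SE of 0.21 and an adjusted p of 0.364 by edgeR. It depended on single libraries, being 0.16 without the day 10 WT and 0.17 without the day 14 Il21r-/- library, and 0.58 without the day 7 WT or the day 10 Il21r-/- library. Without the day 10 WT library the value of E2f8 was below those of E2f1 (0.20), Rbl1 (0.20), E2f3 (0.19) and E2f7 (0.18). Leaving out the day 14 Il21r-/- library also put it below E2f1 (0.25), Rbl1 (0.21) and E2f3 (0.19). With day as a block the SE fell to 0.09 and the adjusted p to 0.00402.

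Rbl1, the higher of the pocket protein genes described here, was at 144, 158 and 160 CPM in WT. In Il21r-/- it was at 134, 128 and 135 CPM. All WT libraries lay above all Il21r-/- libraries, with means of 154 ± 8.97 and 132 ± 3.81 CPM (SD, n = 3). The log2 fold change of Rbl1 was 0.22 (SE 0.09), with an adjusted p of 0.212 by edgeR and 0.0482 with the block.

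Rbl2, the pocket protein gene linked to resting cells, was at 41.7, 43.1 and 36.2 CPM in WT and at 43.2, 44.5 and 38.4 CPM in Il21r-/-. It was the only member higher in Il21r-/- on each day and its log2 fold change was -0.06 (SE 0.11, adjusted p = 0.789 by edgeR). In the GENCODE annotation, exons of E2f5, E2f7, E2f8 and Rbl2 overlap genes of the opposite strand, while the reads were counted with RefSeq. The strand setting of the counting was not given, so reads from those stretches cannot be told apart.

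Higher levels in WT on each of the 3 days were seen for 7 of the 10 members, against 25.4% of all genes, and higher levels in Il21r-/- on each day for 1 of 10, against 27.9%. All WT libraries lay above all Il21r-/- libraries for 2 members, against 8.33% of all genes. The members were chosen by family, with earlier results of these data known, and are linked in regulation, so they are not independent. In bulk samples, fewer cells in cycle and less RNA per cell cannot be told apart. Of 7 non-GC B cell markers 4, among them Fcer2a, S1pr1 and Klf2, were called higher in Il21r-/-, a direction opposite to that of most members. Ighd, Cr2 and Cd38 were not called, and each was higher in WT on day 7. None of the 7 markers was at 0, and their sum was 310 to 745 CPM in WT and 726 to 1180 CPM in Il21r-/-. Most of that sum came from Fcer2a and Cr2, while Ighd was at 0.98 to 1.68 CPM over the 6 libraries. The part of these 7 markers and of the plasma and myeloid markers in the E2F values was not tested.

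**Figure D3:**
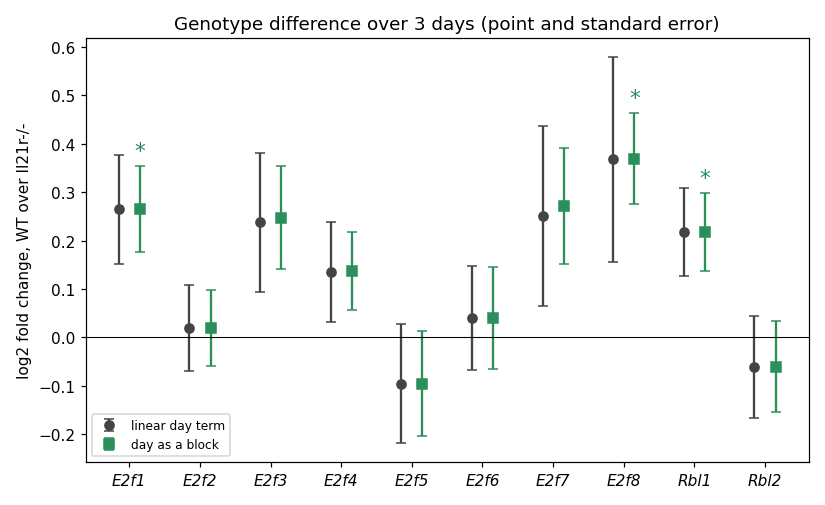
Log2 fold change of WT over Il21r-/- over 3 days for each gene, as points with standard errors, with a linear day term in grey and with day as a block in green. An asterisk marks an adjusted p under 0.05, which E2f1, E2f8 and Rbl1 reach with the block and no gene reaches with the linear term.

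Day by day, with 1 library of each genotype on each day and dispersions taken from all 6 libraries (edgeR likelihood ratio test), no member was called. The background of genes called was 1.07% on day 7, 3.1% on day 10 and 3.28% on day 14, and no member reached an unadjusted p under 0.05 on any day. On day 7 the largest log2 fold change was that of E2f7, at 0.44 (SE 0.35), followed by E2f3 at 0.42 (SE 0.28). With the linear day term kept, these values were 0.18 for E2f7 and 0.26 for E2f3. On days 10 and 14 the largest was that of E2f8, at 0.35 (SE 0.38) and 0.58 (SE 0.38), or 0.70 and 0.40 with the linear term kept. With dispersions from the model with day as a block, E2f8 on day 14 was called, with an adjusted p of 0.0175 by edgeR, and so were 9.59% of genes. Whether the genotype difference changed with day was tested as a genotype by day term: 0 members and 0% of genes were called by edgeR, 118 genes and no member were under an unadjusted p of 0.05, and the likelihood ratio test called 0 genes as well.

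The change with day over both genotypes was tested in the same model. No member passed for the linear day trend, against 4.43% of genes, and 2 of 10 members, E2f2 and E2f6, were under an unadjusted p of 0.05, against 23.5% of genes. E2f2 had a trend of -0.06 log2 units per day (SE 0.02, adjusted p = 0.0718 by edgeR). E2f6 went the other way, at 0.05 log2 units per day (SE 0.02, adjusted p = 0.174 by edgeR).

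Pairs of days were also compared with day as a factor, and the pairs with day 10 were added after the levels had been seen. From day 7 to day 10, 14.4% of genes were called, among them 2 members, and E2f8 rose by a log2 fold change of 0.68 (SE 0.11, adjusted p = 0.000121 by edgeR). E2f7, the other atypical factor, rose by 0.48 (SE 0.15, adjusted p = 0.0259 by edgeR). The E2f8 rise was seen in both genotypes, from 45.0 to 76.3 CPM in WT and from 39.7 to 60.0 CPM in Il21r-/-. E2f8 was not called without the day 7 WT library, where its rise was 0.51 (adjusted p = 0.0525 by edgeR). E2f7 was not called without the day 7 WT library, with a larger value of 0.58 (adjusted p = 0.0895 by edgeR), nor without the day 7 or day 10 Il21r-/- library, with values of 0.33 and 0.26 (adjusted p of 0.332 and 0.543).

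From day 10 to day 14, 21.8% of genes were called, and the 2 members among them fell. E2f8 decreased by 0.41 on the log2 scale (SE 0.11, adjusted p = 0.0117 by edgeR), and E2f3 decreased by 0.40 (SE 0.13, adjusted p = 0.0276 by edgeR). Without the day 10 Il21r-/- library the values were -0.37 for E2f8 and -0.25 for E2f3 (adjusted p of 0.240 and 0.505 by edgeR). Without the day 14 Il21r-/- library they were -0.23 and -0.38 (adjusted p of 0.463 and 0.276 by edgeR). E2f8 also lost its call without the day 10 WT library and E2f3 without the day 14 WT library, at values of -0.42 and -0.39 close to those with all libraries (adjusted p of 0.0514 and 0.198 by edgeR). From day 7 to day 14, 26.2% of genes were called and E2f2 was the only member among them, with a decrease of 0.40 (SE 0.10, adjusted p = 0.00212 by edgeR). It lost its call without the day 7 or the day 14 WT library, with a value of -0.35 in each case (adjusted p of 0.0777 and 0.115 by edgeR).

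The genes whose profile over the 6 libraries was most like that of E2f8, by the root mean square difference of log2 CPM centred on its mean, were Kif14, Cmip and Pole, at 0.06, 0.06 and 0.07 log2 units. E2f8 itself ranged over 0.94 log2 units. Kif14 encodes a mitotic kinesin and Pole the catalytic subunit of a replicative DNA polymerase. Prpf4 and Aars were among the nearest to E2f1, at 0.03 log2 units each, within a range of 0.53 for E2f1. Dennd10, Ssr3 and Emc3 were nearest to E2f5, at 0.04 log2 units each, within a range of 0.38.

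The genes that act with the E2F factors and those they act on were then read from lists. These lists too were chosen with earlier results of these data known. Over all genes tested, 5.92% were called over 3 days in either direction. Of the 10 genes for DP partners and DREAM subunits, 0 were called over 3 days, 9 had a positive log2 fold change and the median was 0.18. Tfdp1, the main DP partner, was at 203, 233 and 214 CPM in WT and at 165, 178 and 167 CPM in Il21r-/-, without overlap (log2 fold change 0.35, SE 0.10, adjusted p = 0.0772 by edgeR). Lin54, the DNA-binding subunit of the MuvB core, had a log2 fold change of 0.38 (adjusted p = 0.147 by edgeR). With day as a block 3 of the 10, Tfdp1, Lin54 and Mybl2, were called higher in WT, against 9.33% of all genes tested.

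Of the 9 genes for subunits of the E2F6 complex, 0 were called with either model, 7 were positive and the median was 0.12. Pcgf6 at 0.25 (adjusted p = 0.229 by edgeR) and Wdr5 at 0.18 (adjusted p = 0.376) had the smallest p of this list. Of 6 genes that turn over E2F proteins or inhibit the ligases that do, 0 were called, all 6 were positive and the median was 0.28. Fbxo5, an inhibitor of the anaphase-promoting complex, had a log2 fold change of 0.33 (adjusted p = 0.0754 by edgeR), and Ccnf, whose product cyclin F targets E2F proteins for degradation, had 0.33 (adjusted p = 0.0773 by edgeR). With the block 4 of the 6 were called higher in WT, against 9.33% of all genes tested.

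Among 12 cyclins, cyclin-dependent kinases and inhibitors upstream of E2F, 2 were called, 1 of them higher in WT and the other lower. Ccne1, the E-type cyclin that drives entry into S phase, was at 44.0, 56.5 and 55.4 CPM in WT and at 36.7, 34.9 and 37.3 CPM in Il21r-/-. WT lay above Il21r-/- in all libraries, with a log2 fold change of 0.51 (SE 0.12, adjusted p = 0.0379 by edgeR). Cdkn1b, which encodes the inhibitor p27, was at 17.0, 12.1 and 10.2 CPM in WT and at 26.7, 21.1 and 19.4 CPM in Il21r-/-. All Il21r-/- libraries lay above all WT libraries, with a log2 fold change of -0.79 (SE 0.13, adjusted p = 0.0107 by edgeR). Under the block 5 of the 12 passed as higher in WT, against 9.33% of all genes tested, and 2 passed as lower.

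Among 37 E2F target genes of G1 and S phase, all 37 had a positive log2 fold change, with a median of 0.38, and 5 were called, all higher in WT. The medians were 0.34, 0.44 and 0.40 on days 7, 10 and 14. Of the 37, 35 were higher in WT on all 3 days, against 25.4% of all genes tested. Orc1, a subunit of the origin recognition complex, was at 16.6, 18.4 and 22.5 CPM in WT and at 11.5, 12.4 and 12.3 CPM in Il21r-/-, with a log2 fold change of 0.66 (adjusted p = 0.0195 by edgeR). Rrm2, a subunit of ribonucleotide reductase, was at 366, 448 and 431 CPM in WT and at 269, 304 and 323 CPM in Il21r-/-. Its log2 fold change was 0.48 (adjusted p = 0.0273 by edgeR). With the block 34 of the 37 were called, all higher in WT, against 9.33% of all genes tested. Tyms, Tk1 and Rfc3 were not called. The 8-base motif was present in the windows of 14 of the 31 of these genes that had one (45.2%), beside 5.02% of all tested genes.

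Among 20 DREAM target genes of G2 and mitosis, all 20 were positive, with a median of 0.37, and 0 were called. Kif20a, a mitotic kinesin, had a log2 fold change of 0.52 (adjusted p = 0.0609 by edgeR), and Aurka, the Aurora A kinase, had 0.38 (adjusted p = 0.0619 by edgeR). The medians on days 7, 10 and 14 were 0.12, 0.41 and 0.39. With the block 15 of the 20 were called, all higher in WT, against 9.33% of all genes tested. The 8-base motif was present in the windows of 1 of the 16 with one (6.25%), close to the 5.02% of all tested genes. The members' own median of 0.18 was lower than that of either target list, and no test of that difference was made.

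**Figure D4:**
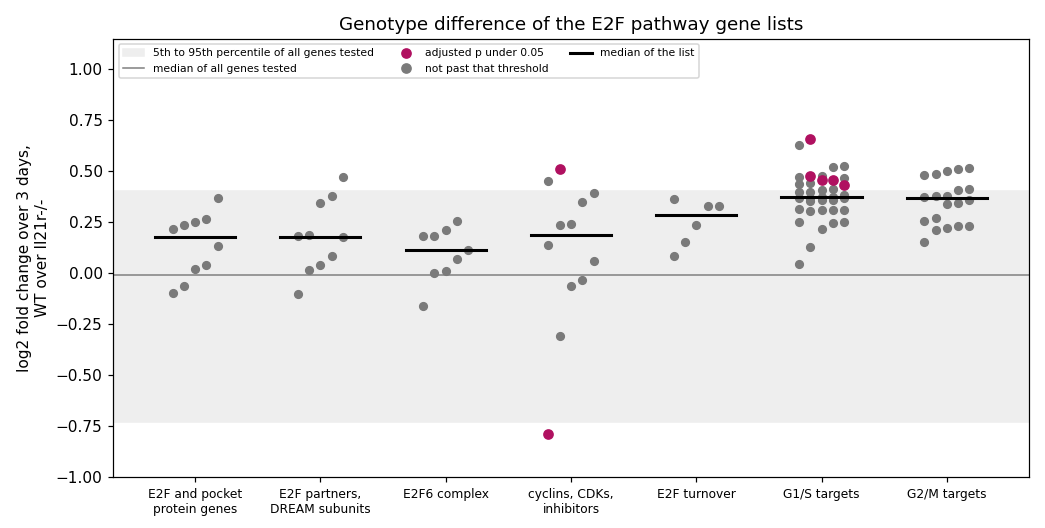
Log2 fold change of WT over Il21r-/- over 3 days for the genes of each list, 1 point per gene, with genes past an adjusted p of 0.05 in magenta and the list median as a black bar. Grey shading spans the 5th to 95th percentile of all genes tested and the grey line is their median of -0.01; all points of the G1/S and G2/M target lists lie above that line.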

How the data were processed

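Spleen GC B cells were profiled as 1 RNA-seq library per genotype and day. Per the labels and the study's methods, single-end reads of TruSeq libraries were processed with CASAVA 1.8.2, aligned to mm10 with Rsubread and counted per gene with featureCounts and its built-in RefSeq annotation; the strand setting is not given in the sources used here. The authors deposited raw counts, which were used as deposited, and gene length, used only for RPKM. The library files equal the series table. Symbols came from RefSeq for 25275 identifiers and from GENCODE for 18; the 1886 without one held 1.57 to 2.24% of counts.

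Y-linked genes, Xist and immunoglobulin variable genes were left out, and genes with an average log2 CPM of at least 0 were kept. TMM factors (0.958 to 1.04), dispersions (biological coefficient of variation 13.1%, 3 residual degrees of freedom) and tests came from edgeR 4.0.16 in R 4.3.3, after testing on simulated data. The main fit had genotype and linear day. Samples of 1 day deviated together (r of 0.64, 0.413 and 0.645 across genes on days 7, 10 and 14), so day, from the labels, was used as the replicate block. Libraries of 1 genotype differ in day, so p-values measure spread between these libraries. DESeq2 1.42.0 was an alternative. All members were named, with Il21r; of other lists, up to 4 called genes with the largest change or else the 2 with the smallest p; and 3 nearest profiles for E2f1, E2f5 and E2f8. Some genes that this rule names are not reported here. Mybl2, Tyms, Tk1, Rfc3 and the called markers were named after their values were seen. Members and lists were chosen with earlier results of these data known.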

Additional observations from a re-analysis of the deposited data

How the results depend on the processing

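Of the members' genotype differences over 3 days, those of E2f1, E2f3, E2f4, E2f6, E2f7, E2f8, Rbl1 and Rbl2 kept their sign under all 15 alternatives run for each. E2f2 ranged from -0.0101 to 0.0529 and E2f5 from -0.187 to 0.0176 as single libraries were left out. The adjusted p of E2f1 ranged from 0.0278 to 0.674, that of E2f8 from 0.00402 to 0.838 and that of Rbl1 from 0.0482 to 0.622. The number of members called, 0, became 3 with day as a replicate block, 2 with DESeq2 and the block (E2f1 and E2f8), and 0 to 3 as single libraries were left out, with 3 (E2f1, E2f3 and E2f7) without the day 10 Il21r-/- library. For the day trend, 0 members called became 1 with the DESeq2 Wald test, 1 with the likelihood ratio test, 1 for day 14 against day 7 (E2f2 in each), 2 for day 10 against day 7, and 0 to 1 with libraries left out. The E2f8 trend ranged from -0.0187 to 0.0798 per day with libraries left out, and its day 7 genotype difference was -0.0627 with the linear day term kept. On day 14, block dispersions called 1 member. For the pairs of days, members called were 0 to 2 (day 10 against 7), 0 to 1 (day 14 against 7, and 2 with DESeq2 size factors) and 0 to 2 (day 14 against 10) with libraries left out.

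Over all genes, 651 were called for genotype; this was 991 with every gene with any count, 1193 with the likelihood ratio test, 2519 with the block, 173 with no day term, 1786 with DESeq2 and the block, and 136 (without day 14 WT) to 2093 (without day 10 Il21r-/-) with libraries left out. The 488 for the day trend became 869 with any count, 870 with DESeq2, 1186 with the likelihood ratio test, 2880 for day 14 against day 7, 1584 for day 10 against day 7 and 0 (without day 7 WT) to 2124 (without day 10 Il21r-/-). The 0 for the difference in trend became 0 to 11. Day 7 called 118 genes, 303 with block dispersions and 105 to 212 with libraries left out; day 10 called 341, 722 with the linear term kept and 822 with block dispersions; day 14 called 361, 1055 with block dispersions and 339 to 698. Day 10 against 7 gave 399 to 1364 (1584 with all), day 14 against 7 gave 942 to 2899 (2880) and day 14 against 10 gave 124 to 2389 (2398). The block changed no call of the members' own genotype tests other than those named, and the cause of these changes was not tested. With 1 library per genotype and day, leaving out a library assumes that the remaining one varies like the others.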
